A study of Mus musculus with 6 samples.

Results

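miR-1a-3p (MIMAT0000123) and miR-133a-3p (MIMAT0000145) are skeletal and cardiac muscle miRNAs, short RNAs that lower the output of target mRNAs, and each is encoded by 2 gene copies that sit in paired clusters, 1 miR-1a hairpin with 1 miR-133a hairpin. The loci described here were all the table's entries for these identifiers together with the other arm of each hairpin, taken as an entry on the same chromosome and strand within 80 bases. That rule gave 8 of the 2110 loci counted, 4 for the 3p arms and 4 for the 5p arms. The rule itself used no measured value, but the members were chosen with earlier results of these data known.

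The libraries held small RNA from extracellular vesicles of mouse muscle, labelled as exosomes, which are small membrane vesicles that cells shed. One group of 3 was labelled young muscle and the other group of 3 old muscle. The labels gave no strain, age, treatment or named muscle for either group, and they did not say that replicates came from separate animals, so p-values cover only how far these libraries differ among themselves, and that variation may be technical. Total counts were between 904892 and 1706396 per library, with the lowest in old replicate 1. That library stood apart: its counts differed from those of the other old libraries by a chi-square of 176.1 and 280.9 per degree of freedom, against 14.4 to 28.4 among young libraries and 30.3 between old replicates 2 and 3. Its miR-21a-5p level, the most abundant miRNA of the table, was 320000 CPM (counts scaled by library size), against 479300 to 568600 CPM in the other 5 libraries.

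In muscle, miR-1a and miR-133a are made from shared primary transcripts whose genes are controlled by muscle factors such as MyoD, MEF2 and SRF. miR-1 is known for promoting muscle differentiation, with the repressor HDAC4 among its targets, and miR-133a for restraining SRF and limiting differentiation. Each has a close relative in another cluster: miR-206 belongs to the miR-1 family and miR-133b to the miR-133 family, and the miR-206 and miR-133b cluster is known for its activity in skeletal muscle and its rise in regenerating muscle.

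Of the 5 mature miRNAs at the member loci, 1 had an entry in the RefSeq sequence table (GRCm38.p6), miR-1a-1-5p from the Mir1a-1 hairpin. It is shown with the matching arm of miR-206, and with the 3p arms of the relatives that served as comparators in the ratios given further on. Sequences run 5′ to 3′, and capitals mark the seed, bases 2 to 8.
miR-1a-1-5p: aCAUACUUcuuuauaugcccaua
miR-206-5p: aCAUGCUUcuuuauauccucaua
miR-206-3p: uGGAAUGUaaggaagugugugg
miR-133b-3p: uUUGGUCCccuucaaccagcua
miR-1a-1-5p and miR-206-5p were identical at 20 of 23 positions. Counted from the 5′ end, with the miR-1a-1-5p base first, they differed by A5G, which lies in the seed, and by G17C and C19U.

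Mir1a-1 and Mir133a-2, the cluster in which both miRNAs were counted, lie on chromosome 2 within the RefSeq host gene Mir1a-1hg, plus strand. The host's start is 3444 bases before the Mir1a-1 hairpin, and 9254 bases separate that hairpin from Mir133a-2. The window from 250 bases before to 50 bases after the host's start, chr2:180385354-180385653 of GRCm38.p6, plus strand, is shown because both miRNAs are annotated within this host. Capitals mark the matches to CAGCTG, a form of the E-box that MyoD binds, and to TATAA.
Mir1a-1hg promoter: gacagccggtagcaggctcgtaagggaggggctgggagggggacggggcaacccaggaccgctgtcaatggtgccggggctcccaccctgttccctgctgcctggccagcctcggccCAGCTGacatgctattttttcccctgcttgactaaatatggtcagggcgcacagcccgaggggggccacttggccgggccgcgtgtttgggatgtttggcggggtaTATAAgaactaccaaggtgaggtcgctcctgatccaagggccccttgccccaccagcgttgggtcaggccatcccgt
CAGCTG began at base 118 of the window and TATAA 27 bases before the start, with both strands searched. CAGCTG was present in 16.3% and TATAA in 24.9% of 32851 promoter windows of this length. The CArG box, which SRF binds, and the MEF2 site had 0 matches in the window and were present in 1.6% and 3.2% of all windows. The 2 motifs with matches did not overlap.

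Both miRNAs were higher in vesicles of old muscle, miR-133a-3p by 2.15-fold and miR-1a-3p by 1.63-fold. For these values the counts of a miRNA's copies were summed, and CPM were scaled with TMM factors, which correct for differences in library composition. The comparison used edgeR's quasi-likelihood test across all 317 mature miRNAs that passed the filter on low counts, and a change was called at a Benjamini-Hochberg adjusted p under 0.05. In this comparison 3.47% of the tested mature miRNAs (11 of 317) were called higher in old muscle and 1.58% (5 of 317) lower. With scaling by plain library totals the split was 6 higher and 1 lower. Without old replicate 1 it was 25 and 24, without old replicate 3 it was 11 and 3, and without any 1 of the other 4 libraries it was at most 5 and 3. More vesicles from a cell type and more of a miRNA per vesicle cannot be told apart in such libraries.

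miR-133a-3p was counted 3604, 3547 and 3324 times in young replicates 1 to 3, and 5509, 5230 and 6865 times in old replicates 1 to 3. These counts correspond to 2529, 2147 and 2111 CPM in young muscle and to 5501, 3726 and 5333 CPM in old muscle. Every old library was above every young library, with old replicate 2 the lowest of its group. The mean was 2262 ± 232 CPM in young muscle and 4853 ± 980 CPM in old muscle (SD, n = 3 each). edgeR's log2 fold change was 1.10 ± 0.18 (SE, adjusted p = 0.000728), the second smallest p of the 317. Without old replicate 1 the log2 fold change was 1.03 (edgeR, adjusted p = 5.15e-08). Its place among all mature miRNAs by abundance moved from 40 to 43 in the young libraries to 24 to 30 in the old ones.

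miR-1a-3p was counted 2359, 2496 and 3324 times in young replicates 1 to 3 and 3408, 3714 and 3261 times in old replicates 1 to 3. On the CPM scale the young libraries were at 1655, 1511 and 2111 and the old libraries at 3403, 2646 and 2533. The groups did not overlap, with young replicate 3 nearest to the old libraries. The mean was 1759 ± 313 CPM in young and 2861 ± 473 CPM in the old ones (SD, n = 3 each). edgeR's log2 fold change was 0.70 ± 0.18 (SE, adjusted p = 0.021). The abundance rank was 43 to 48 in young and 34 to 40 in old libraries. All counts of miR-1a-3p were assigned at the Mir1a-1 locus, which does not tell which copy the reads were transcribed from.

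The call for miR-1a-3p depended on single libraries and on the scaling. In edgeR's test it was not past the threshold without young replicate 1 (log2 fold change 0.63, adjusted p = 0.19), young replicate 2 (0.62, adjusted p = 0.141), young replicate 3 (0.87, adjusted p = 0.053) or old replicate 2 (0.76, adjusted p = 0.0916), nor with plain library totals (0.73, adjusted p = 0.0976). Without old replicate 1 it stayed past it, at 0.59 (adjusted p = 0.00434). For miR-133a-3p the log2 fold change was between 1.03 and 1.27 and past the threshold under all 12 alternatives, with adjusted p between 5.15e-08 and 0.037. Among the 317 tested mature miRNAs, 13.6% (43) had every old library above every young library, as both of these did.

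**Figure D1:**
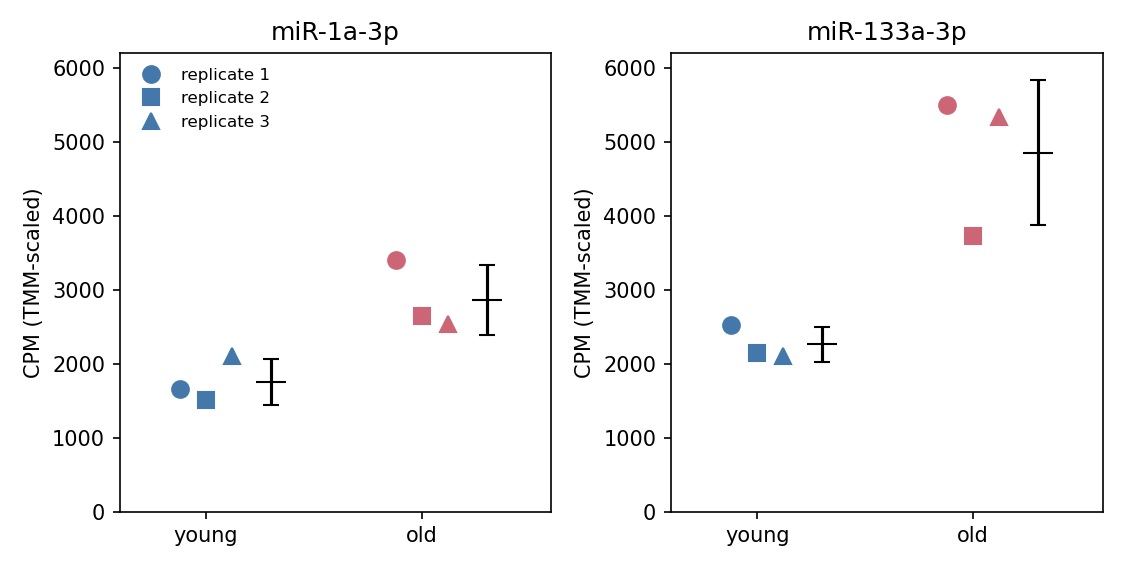
Level of miR-1a-3p and miR-133a-3p (vertical axis, TMM-scaled CPM, from 0) in each of the 3 young (blue) and 3 old (red) libraries, marker shape giving the replicate number. Black bars are the mean ± SD. The old libraries are at 2533 to 3403 CPM for miR-1a-3p and at 3726 to 5501 CPM for miR-133a-3p, above all young libraries.

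**Figure D2:**
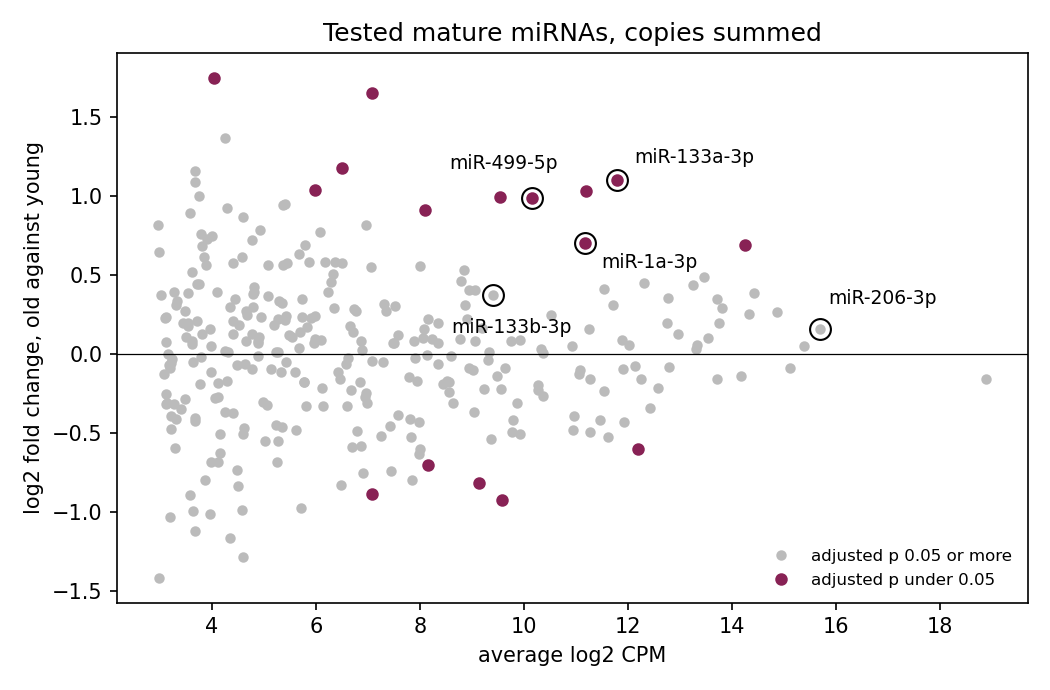
The 317 tested mature miRNAs by average log2 CPM (horizontal axis) and log2 fold change of old against young (vertical axis), with those at an adjusted p under 0.05 in purple. Circles mark 5 muscle-enriched miRNAs: miR-133a-3p, miR-499-5p and miR-1a-3p are purple, while miR-133b-3p and miR-206-3p are grey.

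**Figure D3:**
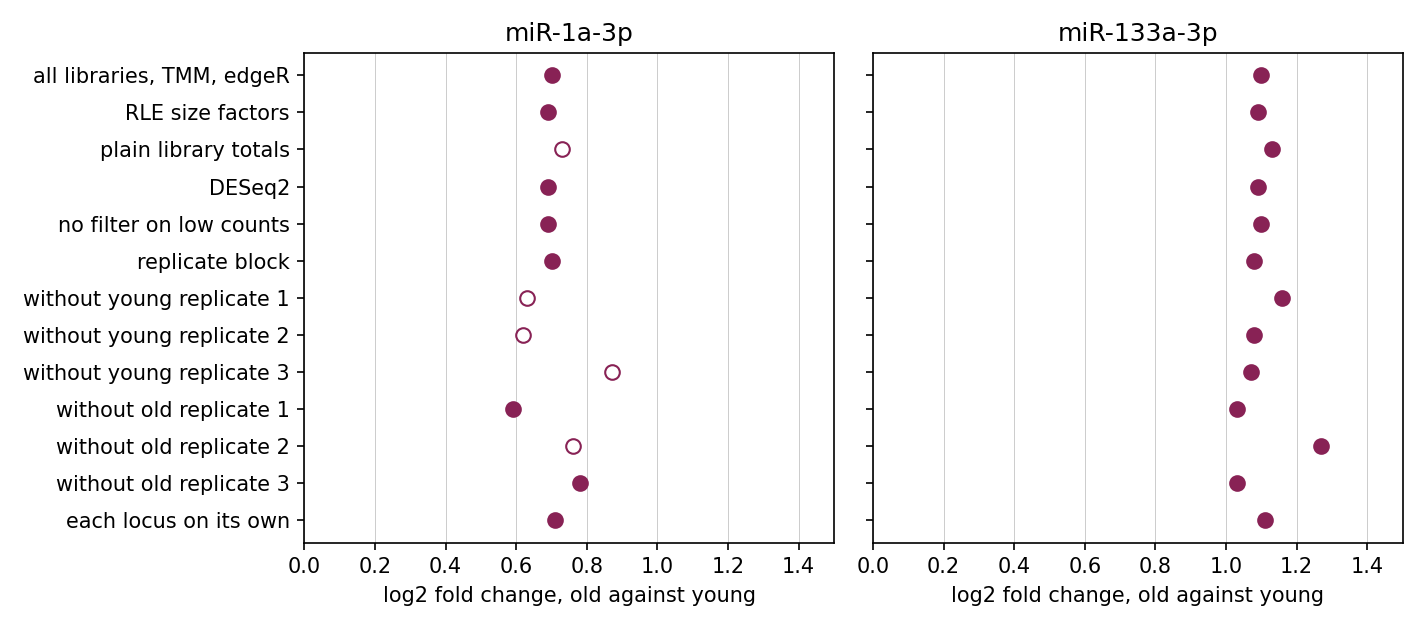
Log2 fold change of old against young (horizontal axis) of each miRNA under each way of computing it (vertical axis). Filled points have an adjusted p under 0.05 and open points do not. The bottom point is the fit of single loci, for miR-133a-3p the Mir133a-2 locus. All points of miR-133a-3p are filled, while 5 of miR-1a-3p are open.

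Both members also took a larger share of the counts. A share uses no TMM factor, but it rests on plain library totals, with which the call for miR-1a-3p was lost. miR-133a-3p made up 0.247, 0.208 and 0.218% of counts in young and 0.609, 0.369 and 0.496% in old libraries. miR-1a-3p made up 0.162, 0.146 and 0.218% in young and 0.377, 0.262 and 0.236% in old libraries. For both, every old library was above every young library (two-sided exact permutation p = 0.1 each, the smallest that 3 against 3 allows).

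By copy, both miR-133a-3p loci were higher in old muscle by nearly the same amount. Mir133a-2, at bases 180398437 to 180398458 of chromosome 2 on the plus strand (mm10), was counted 1775, 1809 and 1677 times in young and 2735, 2617 and 3471 times in old libraries. Mir133a-1, at bases 10782913 to 10782934 of chromosome 18 on the minus strand, was counted 1829, 1738 and 1647 times in young and 2774, 2613 and 3394 times in old libraries. Mir133a-1 lies in an intron of its host Mir133a-1hg and opposite an intron of Mib1. In the fit of single loci, where 3.46% (12 of 347) were called higher, the log2 fold changes were 1.11 ± 0.18 for Mir133a-2 and 1.12 ± 0.18 for Mir133a-1 (SE, edgeR, adjusted p = 0.0009 each). Of all miR-133a-3p counts, 14084 of 28079 were at Mir133a-2, or 50.2% (exact 95% interval 49.6 to 50.8), and the share was between 49.3 and 51.0% in every library. Both loci carry 1 mature identifier, so the split does not tell which copy a read was transcribed from. Intervals on shares of counts cover counting error only.

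Only 1 copy of miR-1a-3p held counts in the table. Mir1a-1, at bases 180389096 to 180389117 of chromosome 2 on the plus strand, held all 18562 counts, and its log2 fold change was 0.71 ± 0.18 (SE, edgeR, adjusted p = 0.0285). Mir1a-2, at bases 10785485 to 10785506 of chromosome 18 on the minus strand, 2504 bases from Mir133a-1, held 0 counts in all 6 libraries. That locus shares 21 bases with miR-1b-5p, annotated on the other strand, which also held 0 counts. The counting command left reads over overlapping entries unassigned: 106 loci of the table overlap another, and 104 of them held 0. The 0 at Mir1a-2 therefore carries no information on its level, and the summed miR-1a-3p value counts 1 of its 2 copies.

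The 5p arms of these hairpins were at or near 0 counts, and none passed the filter on low counts. miR-1a-1-5p, at bases 180389057 to 180389079 of chromosome 2, was counted 1, 0 and 1 times in young and 0, 6 and 2 times in old libraries. miR-133a-5p was counted 1, 0 and 0 times in young and 0, 2 and 0 times in old libraries at Mir133a-1, and 2, 0 and 0 against 0, 1 and 2 times at Mir133a-2. miR-1a-2-5p held 0 counts and shares 21 bases with miR-1b-3p. The 5p arm made up 0.0538% of the counts of both arms at Mir1a-1 (10 of 18572, exact 95% interval 0.0258 to 0.099) and 0.0285% at the Mir133a hairpins together (8 of 28087, interval 0.0123 to 0.0561). The relatives of the other cluster lay on either side of these shares: the 5p arm made up 1.57% at Mir133b (89 of 5653, interval 1.27 to 1.93) and 0.00116% at Mir206 (5 of 432820, interval 0.000375 to 0.0027). Of the 8 member loci, 3 were tested, and all 3 were called higher in old muscle, where 3.46% of all tested loci were. Both Mir133a loci among them split the reads of 1 mature miRNA, and Mir1a-1 lost its call in 6 of 11 alternatives.

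The members' balance against each other could not be told apart between the age groups. The ratio of miR-133a-3p to miR-1a-3p counts, both features being 22 bases long, was 1.53, 1.42 and 1.00 in young and 1.62, 1.41 and 2.11 in old libraries. It sets both copies of miR-133a-3p against 1 copy of miR-1a-3p, so it does not tell which miRNA was more abundant. The groups overlapped, with young replicate 3 low and old replicate 3 high. The mean was 1.32 ± 0.28 in young and 1.71 ± 0.36 in the old ones (SD, n = 3 each), a log2 difference of 0.38 (two-sided exact permutation p = 0.3, adjusted over 3 ratios 0.3). On the chromosome 2 cluster alone, with 1 copy of each, the ratio was 0.661 ± 0.136 in young and 0.857 ± 0.186 in the old ones (SD, n = 3 each, exact permutation p = 0.3).

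Relative to the related miRNA of the other cluster, both stood higher in every old library than in any young one. All 4 mature miRNAs are 22 bases long. miR-133a-3p was counted 3.83, 4.23 and 3.49 times as often as miR-133b-3p in young and 7.57, 5.12 and 6.34 times as often in old libraries. The mean ratio was 3.85 ± 0.37 in young and 6.34 ± 1.22 in the old ones (SD, n = 3 each), a log2 difference of 0.71 (exact permutation p = 0.1, adjusted 0.15). miR-1a-3p, with 1 of its 2 copies counted, was far below miR-206-3p, with ratios of 0.0336, 0.0326 and 0.0385 in young and 0.0434, 0.0527 and 0.0644 in old libraries. The mean ratio was 0.0349 ± 0.0031 in young and 0.0535 ± 0.0106 in the old ones (SD, n = 3 each), a log2 difference of 0.60 (exact permutation p = 0.1, adjusted 0.15). The smallest p that 3 against 3 allows is 0.1, so neither difference could pass the threshold. The relatives are close in sequence, and whether reads of one were counted for another was not tested.

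**Figure D4:**
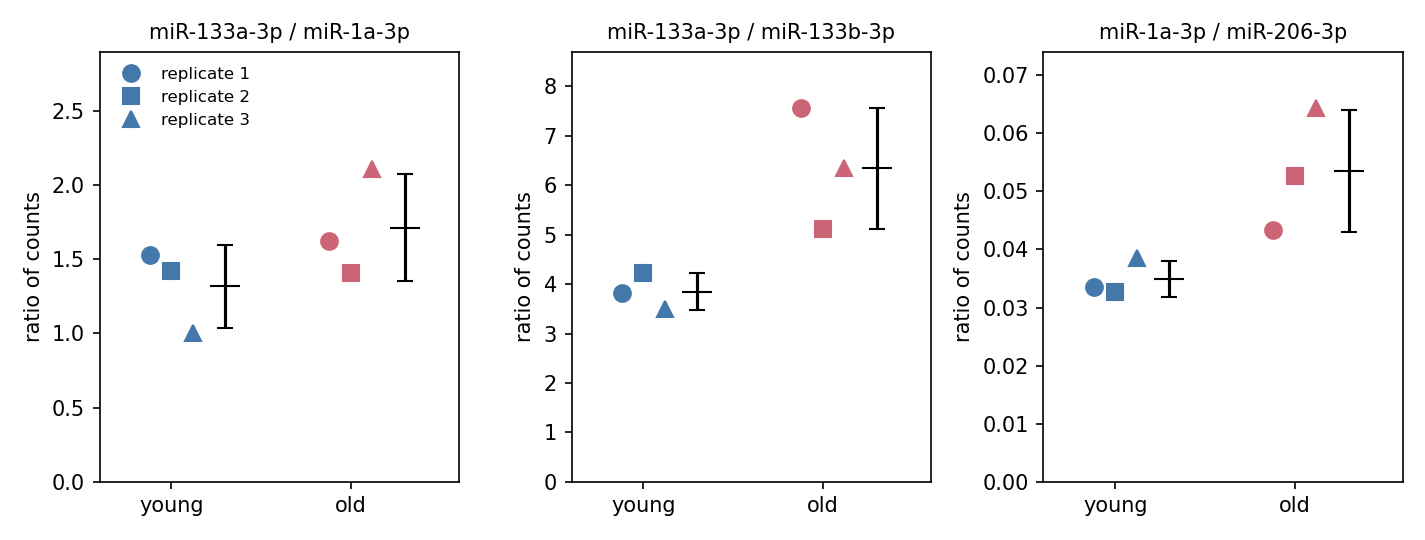
Ratios of counts within each library (vertical axes, from 0) for the 3 young (blue) and 3 old (red) libraries, with black bars for the mean ± SD. The ratio of miR-133a-3p to miR-1a-3p overlaps between groups, while the ratios to miR-133b-3p and to miR-206-3p are higher in every old library.

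Of the other muscle-enriched miRNAs listed, 6 of 7 were found in the table, 3 were tested, and 1 rose, where 3.47% of all tested mature miRNAs were called higher. Their median log2 fold change was 0.37, against 0.05 over all 317 tested mature miRNAs, of which 170 were above 0. miR-499-5p, encoded within a slow-fibre myosin gene, was at 807, 690 and 815 CPM in young and at 1420, 1621 and 1533 CPM in old libraries. It rose by a log2 fold change of 0.99 ± 0.17 (SE, edgeR, adjusted p = 0.000728), and its groups did not overlap. miR-133b-3p was at 591 ± 77.5 CPM in young and 765 ± 65.5 CPM in the old ones (SD, n = 3 each), with a log2 fold change of 0.37 ± 0.18 (SE, edgeR, adjusted p = 0.212). Its groups did not overlap either, at 507.8 to 661 CPM in young and 727 to 840.5 CPM in old libraries. Every old library stood above every young one for 13.6% of all tested mature miRNAs. miR-206-3p was at 49270, 46300 and 54880 CPM in young and at 78490, 50190 and 39310 CPM in old libraries, where old replicate 1 was the highest and old replicate 3 the lowest of all 6. Its log2 fold change was 0.16 ± 0.21 (SE, edgeR, adjusted p = 0.765), and without old replicate 1 it was -0.14. miR-208a-3p, encoded in the cardiac myosin gene Myh6, had 0 or 1 counts per library, miR-208b-3p had 0 to 5, and miR-486a-5p, which overlaps another locus, had 0.

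The labelled tissue was checked against markers. The 5 skeletal muscle miRNAs, both members among them, summed to 51150 to 60520 CPM in young and 49550 to 89540 CPM in old libraries. All 5 were detected. The sum rests mainly on miR-206-3p, at 46300 to 54880 CPM in young and 39310 to 78490 CPM in old libraries. Markers of other cells were present as well. Those of red blood cells, led by miR-451a, summed to 41300 to 43090 CPM in young and 40870 to 48400 CPM in old libraries, and 0 of 3 changed in edgeR's test, with 0 at an unadjusted p under 0.05 and 0 called by DESeq2. Those of smooth muscle and fibroblasts, led by miR-143-3p, summed to 31800 to 32600 CPM in young and 40920 to 45300 CPM in old libraries. Of the 5, only miR-143-3p rose (log2 fold change 0.69, edgeR, adjusted p = 0.0132). The other 4 did not pass the test and went both ways: the log2 fold change was 0.41 for miR-145a-5p and 0.19 for miR-199a-3p, but -0.49 for miR-199a-5p and -0.42 for miR-214-3p. Each of the latter pair was lower in every old library than in any young one, and miR-199a-3p was higher in every old library. Of all tested mature miRNAs, 13.6% were higher in every old library. Many others were lower in every old library, such as miR-31-5p and miR-103-3p, but their share was not computed. Those of leukocytes summed to 1151 to 1332 CPM in young and 891 to 1010 CPM in old libraries. Of the 5, 4 were tested and 1, miR-155-5p, fell (log2 fold change -0.82, edgeR, adjusted p = 0.00966), where 1.58% of all tested mature miRNAs were called lower. The other 3 tested had log2 fold changes of 0.78 (miR-142a-5p), 0.08 (miR-150-5p) and 0.10 (miR-223-3p) and did not pass. Of these, miR-142a-5p was higher in every old library than in any young one. The fifth, miR-142a-3p, was at 0, which was not read as absence, so the leukocyte sum may be too low. Both endothelial markers (miR-126a-3p and miR-126a-5p) and the liver marker miR-122-5p were at 0 at loci that overlap another, which tells nothing of their level. The heart marker miR-208a-3p reached at most 0.999 CPM. The part of these other cells in the members' change was not tested.

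Across the 6 libraries the log2 CPM of miR-1a-3p and miR-133a-3p had a Pearson r of 0.849, and 0.763 without old replicate 1. miR-133a-3p stood 12th of 316 miRNAs by likeness to miR-1a-3p, and miR-1a-3p stood 20th by likeness to miR-133a-3p. These correlations describe 6 libraries that share the difference between 2 groups. The 5 miRNAs most like miR-1a-3p were miR-212-3p (r = 0.927), miR-146b-5p (0.921), miR-1843b-5p (0.914), miR-1198-5p (0.908) and miR-187-3p (0.906). The 5 most like miR-133a-3p were miR-146b-5p (r = 0.954), miR-378d (0.94), miR-376c-3p (0.931), miR-22-3p (0.927) and miR-145a-3p (0.922). miR-146b-5p, known for restraining innate immune signalling, was in both lists, at 58.7 to 69.9 CPM in young and 79.8 to 114 CPM in old libraries, with a log2 fold change of 0.58 ± 0.24 (SE, edgeR, adjusted p = 0.159). miR-378d rose from 500 ± 6.56 to 995 ± 78.8 CPM (SD, n = 3 each), a log2 fold change of 0.99 ± 0.17 (SE, edgeR, adjusted p = 0.000728). miR-1843b-5p rose by 1.75 ± 0.41 (log2, SE, edgeR, adjusted p = 0.0149) from a low level of 5.45 to 8.26 CPM in young to 23.3 to 24.9 CPM in old libraries. That call was lost in edgeR's test without young replicate 1 (adjusted p = 0.0577), young replicate 2 (0.0905), young replicate 3 (0.0503) or old replicate 2 (0.0916). The other 6 did not pass the threshold. The miRNAs of both lists were picked for likeness to members that were higher in old muscle, so their rises are not a separate result. Of all tested mature miRNAs, 3.47% were called higher.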

How the data were processed

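Small RNA counts from 6 libraries of mouse muscle vesicles were analysed. The deposited table holds raw read counts for each mature miRNA locus, made by the authors with featureCounts 2.0.6, per the file headers, with no option for strand or for reads over several features. Reads were aligned with BWA to mm10, per the submitters' processing notes. How adapters were trimmed is among the steps not given in the sources used here, as is the aligner's version. No column was left unmapped to a library.

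Loci were named by RefSeq coordinates (1734) or by GENCODE gene and arm (362), and 14 had no name. Counts were summed over loci with the same mature identifier, giving 1966. edgeR 4.0.16 in R 4.3.3 was run with the filterByExpr default (minimum count 10), TMM factors and the quasi-likelihood test of old against young, two-sided, with Benjamini-Hochberg adjustment over all identifiers tested. The 317 tested hold 99.9% of counts. Ratios and shares were compared with exact permutation tests (scipy 1.17.1). Total counts set a floor (3 counts) of 1.76 to 3.32 CPM per library. Only the edgeR fit was tested on simulated counts. These had a common dispersion and no outlying library, unlike the data.

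Alternatives were RLE factors, plain totals, DESeq2 1.42.0, no filter, a replicate block, each library left out in turn, and single loci. Named miRNAs were the members, listed muscle-enriched miRNAs, miRNAs sharing a member's seed (a rule that the sequence table did not allow to be applied), the 5 most like each member by Pearson r of log2(CPM + 0.5), miR-21a-5p and the markers of other cell types. The members and lists were chosen with earlier results of these data known.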

Additional observations from a re-analysis of the deposited data

How the results depend on the processing

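miR-133a-3p kept its direction and call under all 12 alternatives. miR-1a-3p kept its direction under all 12 and lost its call in 5: with plain library totals the log2 fold change was 0.73, and with 1 library left out it was between 0.59 and 0.87, past the threshold only without old replicate 1 or old replicate 3. The number of mature miRNAs called higher was 11, against 6 with plain totals and 4 to 25 with 1 library left out. The number called lower was 5, against 1 with plain totals, 9 with DESeq2 and 0 to 24 with 1 library left out; both counts were highest without old replicate 1, and the cause was not tested. The 0 came without old replicate 2, where edgeR gave 20 lower at an unadjusted p under 0.05. With 1 library left out, miR-206-3p was between -0.14 and 0.36, miR-133b-5p between -0.42 and 0.44 and miR-21a-5p between -0.33 and 0.07 on the log2 scale, none past the threshold in edgeR's test. The log2 differences of the 3 ratios stayed above 0 with any 1 library left out, at 0.19 to 0.51 for miR-133a-3p to miR-1a-3p, 0.57 to 0.85 for miR-133a-3p to miR-133b-3p and 0.46 to 0.74 for miR-1a-3p to miR-206-3p.

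The labels stated no pairing by replicate number. Deviations of same-numbered libraries from their group means correlated at -0.091, 0.024 and -0.122, and not every library correlated best with its own number. Because the deviations sum to 0 within each small group, these values cannot exclude a pairing. With a replicate block the log2 fold change was 1.08 for miR-133a-3p (edgeR, adjusted p = 0.000238) and 0.70 for miR-1a-3p (adjusted p = 0.0286), with 12 called higher and 5 lower. The single-locus value of Mir1a-1 was then 0.72 (adjusted p = 0.112). The members' 5p arms had at most 6 counts in a library and did not pass the filter on low counts, so a change in them was not tested.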
